A study of Saccharomyces cerevisiae with 2 samples.

Results

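The polyamine genes of budding yeast were followed on 2 arrays. They were taken as the probe sets whose platform gene symbol is SPE1, SPE2, SPE3, SPE4, OAZ1, TPO1, TPO2, TPO3, TPO4 or TPO5, which gave 11 of 10928 probe sets and 10 of the 5449 S. cerevisiae genes with a signal. Of these genes, 9 had 1 probe set each and TPO2 had several. No measured value entered this choice, although the genes were proposed with earlier results of these arrays known. One array held RNA of cells grown on the restricted medium (DR, 0.5% glucose) and the other RNA of cells grown on the unrestricted medium (AL, 2.0% glucose), each with yeast extract and peptone, for 12 hours. Both arrays were of the strain BY4742 (Mat alpha, his3Delta1, leu2Delta0, lys2Delta0, ura3Delta0), described in its label as wild-type, so the auxotrophic deletions are shared and no polyamine gene is altered. There was 1 array per condition. No difference below has a replicate check, and no test or p-value is given. No array of spermidine-treated cells was among these samples.

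Putrescine, spermidine and spermine are small polycations that bind nucleic acids and are needed for growth, for the hypusine modification of the translation factor eIF5A and for sporulation. Cells make them from ornithine and from decarboxylated S-adenosylmethionine, and they hold the pool within narrow limits in several ways. High polyamines allow the ribosomal frameshift that makes antizyme, which sends ornithine decarboxylase to the proteasome, and membrane transporters carry polyamines out of the cell. An array reads transcripts, so the frameshift, the turnover of the enzyme and the polyamine pool itself were not measured.

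On the DR-labelled array, 6 of the 10 genes had signals more than 2-fold higher than on the AL-labelled array: SPE1, SPE3, SPE4, TPO1, TPO2 and TPO5. One gene, OAZ1, stood more than 2-fold the other way, SPE2 and TPO4 lay within 2-fold, and TPO3 was under background on both arrays. Over all 5449 genes, 20.5% passed 2-fold toward the DR-labelled array and 24.3% toward the AL-labelled array. The median log2 ratio of labelled DR over labelled AL was 1.16 for the 10 genes and −0.12 for all genes, or 0.94 and −0.39 with signals raised to the background levels given below. Ratios formed with these labels run opposite to those in the tables of the study. The labels were kept, each array is called by its label here, and an exchange of the labels would turn every direction given here.

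Signals are linear intensities that the service laboratory had normalized, and the mean signal without the top and bottom 2% of probe sets was 500.3 on the DR-labelled array and 500.2 on the AL-labelled array. LEU2, LYS2 and URA3, which the strain lacks, had signals of at most 24.6 on either array. Across 9 genes that the strain lacks or that alpha cells keep silent, signals reached 129.4 on the DR-labelled array and 281.6 on the AL-labelled array, and these are the background levels used below. Both are signals of STE6. STE2 came next, at 56.6 and 152.6, and the medians of the 9 genes were 24.6 and 57.6. By the background levels, 6 polyamine genes were above background on both arrays, 3 (SPE4, TPO2 and TPO5) were above it only on the DR-labelled array, and TPO3 was under it on both. The signals of SPE4 and TPO5 on the AL-labelled array lay between those of STE2 and STE6, as did that of TPO3 on the DR-labelled array. TPO2 was placed by the mean of its probe sets, 179.2 on the AL-labelled array. Its probe sets gave 19.0 there, under background, and 1690.8, well above it, so the call for TPO2 rests on averaging. The alpha-specific genes MF(ALPHA)1, MF(ALPHA)2, STE3 and SAG1 were above background on both arrays except MF(ALPHA)2, at 222.6 on the AL-labelled array, and all 4 were over 2-fold higher on the DR-labelled array. So were 90 of 127 genes of cytosolic ribosomal proteins (median log2 ratio 1.63), whose part in the polyamine result was not tested.

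**Figure D1:**
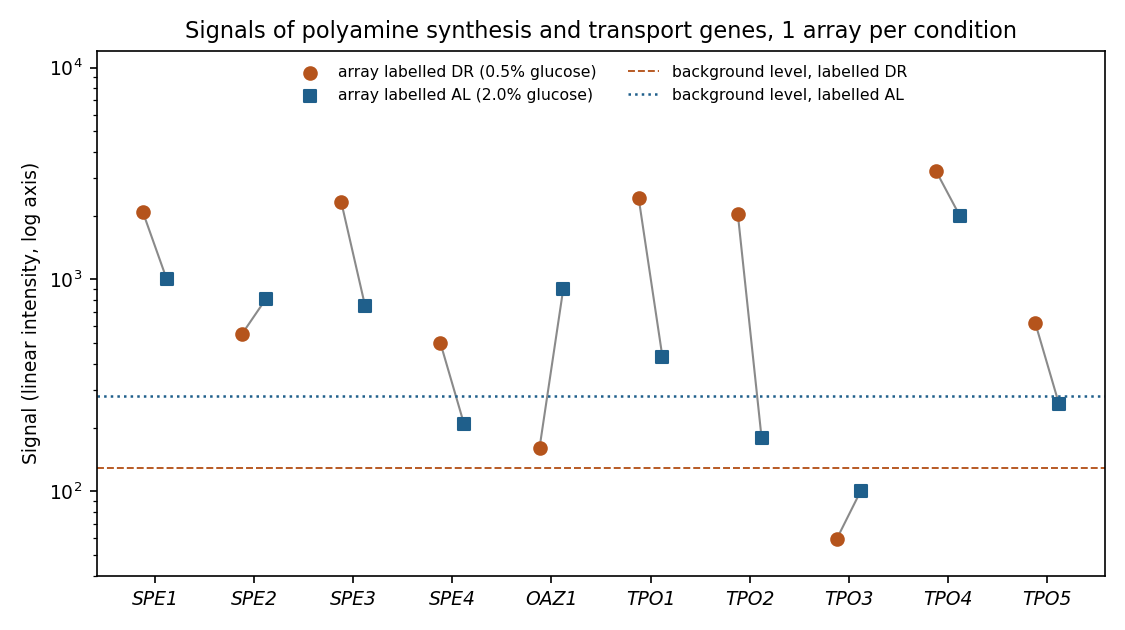
Signal of each polyamine gene (linear intensity on a log axis) on the DR-labelled array (circles) and the AL-labelled array (squares), joined by a line, with the background level of each array as a dashed and a dotted line. For TPO2 the point is the mean of its probe sets on the log2 scale. The lines of 7 genes fall from DR to AL, and those of SPE2, OAZ1 and TPO3 rise.

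Of the genes of the 4 synthesis enzymes, 3 gave the stronger signal on the DR-labelled array, each by over 2-fold, as did 20.5% of all genes. SPE1 encodes ornithine decarboxylase, which makes putrescine and is the main point of control of the pathway. Its signal was 2071 on the DR-labelled array and 1001.3 on the AL-labelled array, a ratio of 2.07, just past the threshold. When the median of those 9 background genes was added on each array, its log2 ratio went from 1.05 to 0.98, just inside it.

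SPE2 encodes S-adenosylmethionine decarboxylase, which supplies the aminopropyl group for both later steps. It was the synthesis gene with the higher signal on the AL-labelled array, at 553.7 on the DR-labelled array and 809.1 on the AL-labelled array, 1.46-fold apart. The log2 ratio of SPE1 exceeded that of SPE2 by 1.60. The signals of the 2 enzymes that feed spermidine synthesis thus stood in opposite directions on these arrays, that of SPE2 within 2-fold. With 1 array per condition, whether they differ beyond error cannot be said.

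SPE3 encodes spermidine synthase, which joins the products of both decarboxylases. It had 2319.7 on the DR-labelled array and 752.1 on the AL-labelled array, a ratio of 3.08, the highest of the 4 enzymes. SPE4, spermine synthase, carries out the next aminopropyl transfer. It had 501.6 and 206.8, in the same order, a ratio of 2.43. The SPE4 signal on the AL-labelled array lay under the background level there, and the ratio was 1.78 with that signal raised to it.

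OAZ1, which encodes antizyme, stood opposite to the enzyme it controls. Its signal was 160.2 on the DR-labelled array and 904.6 on the AL-labelled array, 5.65-fold higher on the latter. Both lay above background, but the former was not far above the level of 129.4 on its array. Of the 5449 genes, 232 (4.26%) had a lower ratio of labelled DR over labelled AL. The log2 ratios of SPE1 and OAZ1 differed by 3.55, so the signal of SPE1 relative to that of OAZ1 was 11.7-fold higher on the DR-labelled array. This is a ratio of ratios. The signals of SPE1 and OAZ1 on the same array were not set against each other.

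Among the exporters, TPO1, TPO2 and TPO5 had higher signals on the DR-labelled array by more than 2-fold, as did 20.5% of all genes. TPO1 is a plasma membrane transporter of the major facilitator type that carries putrescine, spermidine and spermine. Its signal was 2422.5 on the DR-labelled array and 431.1 on the AL-labelled array, both above background, a ratio of 5.62. Only 238 genes (4.37%) had a higher ratio. TPO4, which carries the same polyamines, had 3246.9 and 1996.8, a ratio of 1.63 and within 2-fold. The ratios of TPO1 and TPO4 were thus 3.46-fold apart.

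TPO5 encodes a transporter of internal secretory membranes that excretes mainly putrescine, and it belongs to another protein family than TPO1 to TPO4. It had 625.6 on the DR-labelled array and 258.8 on the AL-labelled array, a ratio of 2.42. The latter signal was a little under background, and the ratio was 2.22 with it raised to that level.

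**Figure D2:**
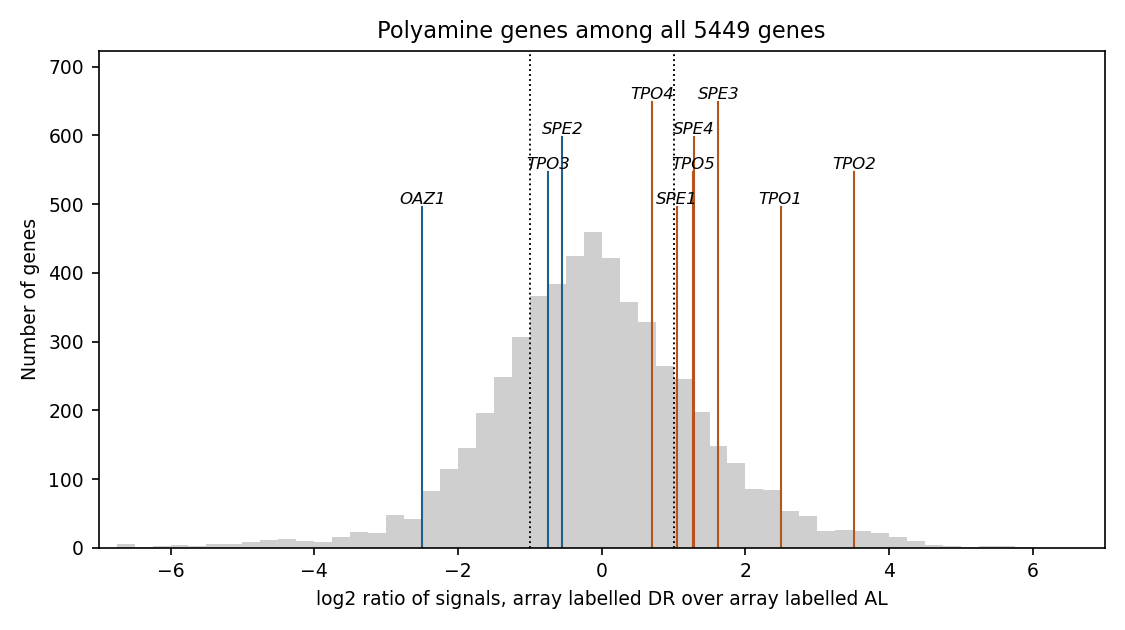
Histogram of the log2 ratio of signals (labelled DR over labelled AL) for all 5449 genes, with the 10 polyamine genes as vertical lines and a 2-fold difference in either direction as dotted lines. Gene counts are on the vertical axis, and the height of a gene's line only spaces the names. OAZ1 stands alone at −2.50, and TPO1 and TPO2 lie farthest to the right, at 2.49 and 3.51. The TPO2 value is the mean of probe sets at 5.97 and 1.05. The ratios of SPE4, TPO5 and the TPO2 probe set at 5.97 rest on a signal under background on the AL-labelled array. Both signals of TPO3 were under background.

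TPO2 and TPO3 encode close relatives that carry spermine, and they are the genes for which the probe sets matter most. TPO2 had 2 probe sets. The one whose identifier has the plain ending (_at) gave 1193.4 on the DR-labelled array and 19.0 on the AL-labelled array, which is under background. The ratio was at least 4.24 with the latter signal raised to that level. The one with the ending _s_at, which Affymetrix gives to probe sets that can match several related transcripts, gave 3505.6 and 1690.8, a ratio of 2.07. Both were higher on the DR-labelled array. Their log2 ratios were 4.92 apart, the widest gap among the 47 genes with several probe sets.

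The mean over both on the log2 scale was 2045.4 on the DR-labelled array and 179.2 on the AL-labelled array. The latter mean is under background, although the _s_at signal of 1690.8 in it is not. The ratio of the means was 11.4, and 7.26 with the mean of 179.2 raised to that level. Neither is the ratio of a probe set. With the plain probe set raised to background, the ratios of the probe sets were 4.24 and 2.07. TPO3 had 59.8 on the DR-labelled array and 100.3 on the AL-labelled array. Both signals lay under background, so no fold is given for TPO3, although both lay above a lower level (11.7 and 11.5) taken from probe sets named for genes outside the S. cerevisiae table. Which transcripts the _s_at probe set bound was not tested.

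**Figure D3:**
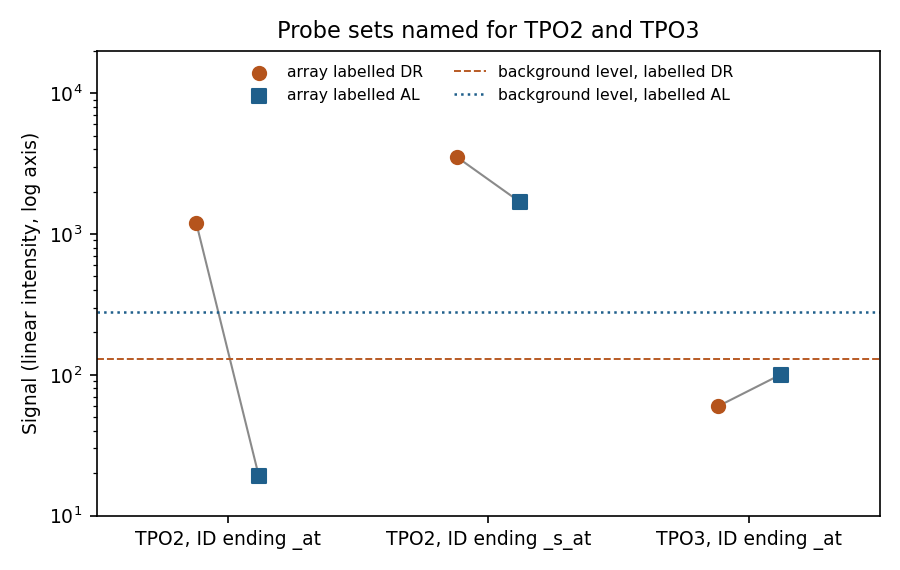
Signal (linear intensity on a log axis) of the probe sets named for TPO2 and TPO3 on the DR-labelled array (circles) and the AL-labelled array (squares), with the background level of each array. The plain TPO2 probe set falls from 1193.4 to 19.0, the _s_at probe set from 3505.6 to 1690.8, and TPO3 lies under both background lines.

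For the 6 genes above background on both arrays, the order of log2 ratio (labelled DR over labelled AL) from the highest was TPO1, SPE3, SPE1, TPO4, SPE2 and OAZ1, and exchanged labels would turn it around. With a single array per condition, which neighbours in this order differ beyond error cannot be said. The other 4 genes were not ranked. No 2 of the 10 genes lie next to each other among the protein-coding genes of the RefSeq gene table.

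Genes around the pathway were described from lists that hold 52 genes, 51 of them measured. Of these, 14 were more than 2-fold higher on the DR-labelled array and 13 on the AL-labelled array, beside 20.5% and 24.3% of all genes. The median log2 ratio was −0.16, against −0.12 for all genes and 1.16 for the polyamine genes, and the lists are small, so a count in one of them is a description that has to be read beside those shares.

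Both precursors enter through other pathways. S-adenosylmethionine is made by SAM1 and SAM2, which were 14.1-fold and 6.88-fold higher on the DR-labelled array, the same direction as SPE3. SPE2, which uses that product, stood the other way within 2-fold. Ornithine comes from the acetylated intermediates of arginine synthesis or from arginine by arginase. Of 7 measured genes that make, carry or use ornithine, 1 was more than 2-fold higher on the DR-labelled array. On the AL-labelled array 2 were, CAR1 and ARG3. These counts are near the shares of all genes (20.5% and 24.3%). ARG7, the acetyltransferase that releases ornithine in mitochondria, had 674.8 on the DR-labelled array and 331.2 on the AL-labelled array. CAR1, arginase, had 3479.5 and 7531.1, 2.16-fold higher on the AL-labelled array. ARG3, ornithine carbamoyltransferase, draws ornithine into arginine in place of putrescine, and it had 54.3, under background, and 347.6, at least 2.69-fold higher on the AL-labelled array with the former raised to background. ARG5,6 had no probe set named for it alone and was not analysed here.

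Each aminopropyl transfer releases methylthioadenosine, which is salvaged to methionine. Of 6 salvage genes, 3 passed 2-fold toward the DR-labelled array and 0 toward the AL-labelled array, beside 20.5% and 24.3% of all genes. MEU1, the phosphorylase that takes up methylthioadenosine, had a signal of 1046.4 on the DR-labelled array and 502.0 on the AL-labelled array, a ratio of 2.08, near that of SPE1. MRI1, the isomerase of the next step, had 1024.1 and 186.5, at least 3.64-fold with the latter raised to background, and ARO8, an aminotransferase that can close the cycle and also serves aromatic amino acids, had 4292.2 and 772.7. MDE1, UTR4 and ADI1, which act between them, lay within 2-fold, all slightly higher on the AL-labelled array.

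Spermidine is used to build hypusine on eIF5A. DYS1, deoxyhypusine synthase, had 5745.6 on the DR-labelled array and 471.8 on the AL-labelled array, a ratio of 12.2. LIA1, the hydroxylase that completes hypusine, had 1245.0 and 233.9, at least 4.42-fold with the latter raised to background. The substrate of both enzymes, the eIF5A protein, was not measured, and the ratios of its 2 genes differed. HYP2, the main eIF5A gene, had 6392.0 and 5823.2, a ratio of 1.10, and its hypoxic relative ANB1 had 376.6 and 95.5, a ratio of 3.94 that came to 1.34 with the latter raised to background. These 2 genes are near copies, and their probe sets may share signal. FMS1, the polyamine oxidase, and PAA1, a polyamine acetyltransferase, lay within 2-fold, at 912.6 and 617.0 and at 1834.9 and 2263.2.

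The oxidation of spermine by FMS1 yields an aldehyde that becomes beta-alanine and then pantothenate, and the genes of this branch split. ALD2 and ALD3, aldehyde dehydrogenases that make beta-alanine and also respond to stress, were 4.22-fold and 17.3-fold higher on the AL-labelled array. PAN5 and PAN6, which act in the synthesis of pantothenate, had 2511.8 and 263.7, and 1385.0 and 254.0, at least 8.92-fold and 4.92-fold higher on the DR-labelled array with signals raised to background. ALD2 and ALD3 are close copies in tandem, so a part of their signal may be shared.

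Of 9 genes of polyamine uptake, 0 exceeded 2-fold on the side of the DR-labelled array and 3 on that of the AL-labelled array, where 20.5% and 24.3% of all genes did, so the count does not set them apart. DUR3, a permease of urea and polyamines, had 253.8 on the DR-labelled array and 1321.5 on the AL-labelled array, 5.21-fold higher on the latter. PTK1 and PTK2, kinases that raise polyamine uptake, had 737.9 and 2901.8, and 1220.5 and 4340.6, which is 3.93-fold and 3.56-fold higher on the AL-labelled array. The permeases SAM3, AGP2, GAP1 and HOL1 and the kinase SKY1 lay within 2-fold, with HOL1 at 1115.1 and 1170.9, and UGA4 was under background on both arrays.

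TPO1 to TPO4 belong to a family of drug:proton antiporters (DHA1). Of 7 relatives, 1 was more than 2-fold higher on the DR-labelled array and 2, AQR1 and DTR1, on the AL-labelled array, near the shares of all genes (20.5% and 24.3%). DTR1 and YHK8 were under background on both arrays. QDR2, an exporter of potassium and drugs, had 2484.5 and 198.1, at least 8.82-fold higher on the DR-labelled array with the latter raised to background. AQR1, an exporter of amino acids and acids, had 248.6 and 2368.8, 9.53-fold higher on the AL-labelled array. FLR1, QDR1 and QDR3 lay within 2-fold, all higher on the AL-labelled array.

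**Figure D4:**
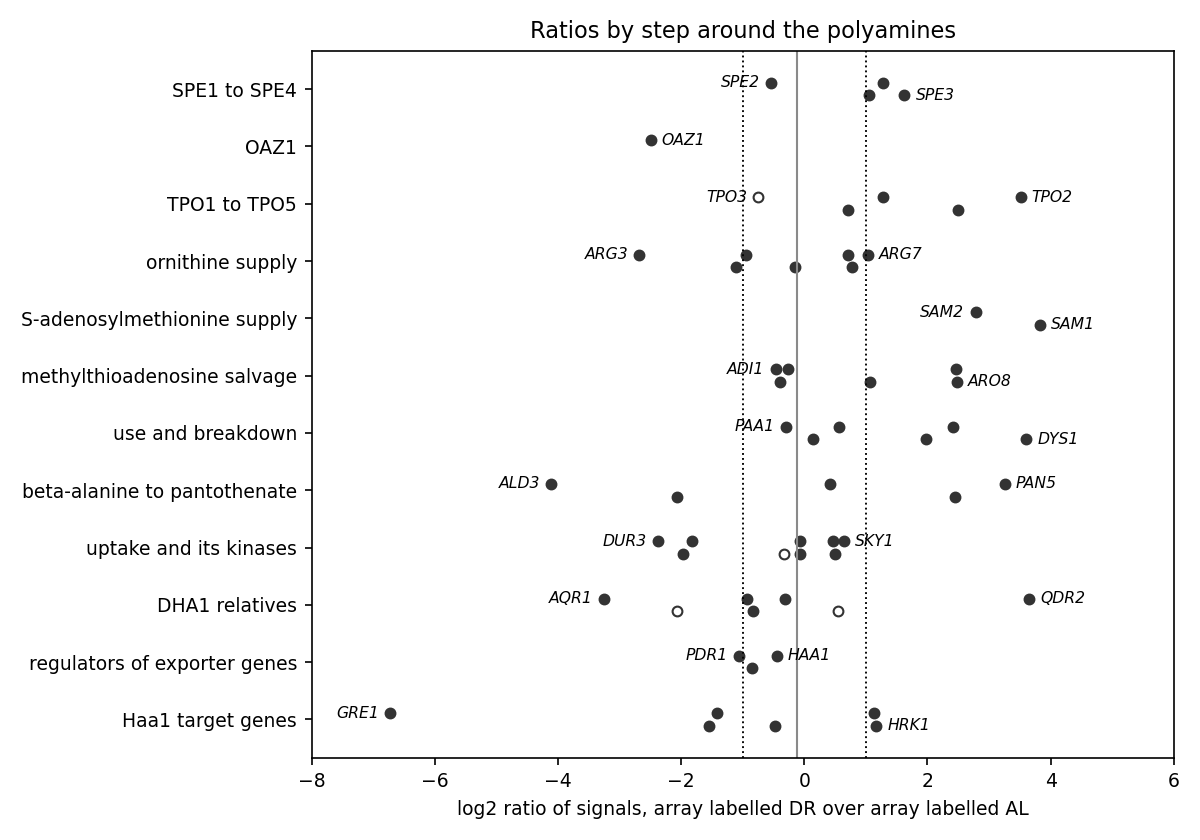
Log2 ratio of signals (labelled DR over labelled AL) of the polyamine genes in the top rows and of the genes of each list around the pathway below, 1 point per gene, offset to avoid overlap. Open points are genes under background on both arrays, dotted lines mark 2-fold, the grey line is the median of all genes, and the lowest and highest gene of each row is named. SAM1 and SAM2 lie to the right of the 2-fold line, at 3.82 and 2.78. The row named ornithine supply also holds genes that use ornithine, such as ARG3.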

How the data were processed

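A service laboratory hybridized the authors' RNA to Affymetrix GeneChip Yeast Genome 2.0 arrays, 1 per condition, and applied the statistical algorithms of Affymetrix. The number of cultures behind an array is not given in the sources used here. For 10928 probe sets the authors deposited linear intensities. The software version is not given in the sources used here. The trimmed means were computed here over all probe sets. No scanner files were used.

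Names of probe sets come from GEO's platform annotation and may be outdated. Of 7244 with 1 symbol, 5498 matched the RefSeq table of S. cerevisiae genes by gene identifier. Where a gene had several probe sets, their log2 signals were averaged. The threshold was 2-fold, as in the study. "Raised to background" means that a signal under the background level of its array was set to that level before the ratio. For the counts past a fold, the mean of a gene with several probe sets was raised, not each probe set.

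Named are all 10 polyamine genes, genes of the lists around them (at least those past 2-fold) and the genes of the strain check. The polyamine genes and the lists were chosen with earlier results of these data known. A planned motif search in promoters and a planned comparison of protein sequences were not run, since no sequences were used here. The ratio steps were run on simulated data with planted ratios far past 2-fold, which does not check genes near that threshold. The number of arrays limits the precision. Computation used Python 3.11.15 (numpy 2.4.6, pandas 2.3.3), with statsmodels 0.14.6 for the lowess trend and matplotlib 3.10.9 for the plots.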

Additional observations from a re-analysis of the deposited data

How the results depend on the processing

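The alternatives were median centring, quantile normalization, removal of a lowess trend of ratio on signal (span 0.3), signals raised to background, the median background signal added, genes under background on both arrays left out, the brightest probe set of a gene, thresholds of 1.5-fold and 3-fold and, chosen after seeing the data, signals raised to the lower background and TPO2 without its _s_at probe set. The direction of no polyamine gene changed under any of them, leaving aside TPO3, whose signals were under background on both arrays. Of 89 recomputed log2 ratios, 43 equalled the first value, since their setting does not touch that gene, and 42 of the other 46 kept their side of the 2-fold threshold. The exceptions were SPE1 with the median background added (0.98), SPE4 with signals raised to background (0.83) or with the median background added (0.99), and TPO3 with signals raised to background (−1.12), a value that is the log2 ratio of the background levels themselves. That last case takes the count past 2-fold on the side of the AL-labelled array from 1 to 2, as does the 1.5-fold threshold, again through TPO3. The count on the side of the DR-labelled array went from 6 to 5 with signals raised to background and to 4 with the median background added. It was 7 at 1.5-fold. Over all genes, the shares toward the DR-labelled and AL-labelled arrays were 14.1% and 32.1% with signals raised to background. They were 15.9% and 25.3% with the median background added, and 29.3% and 35.7% at 1.5-fold. At 3-fold, 3 polyamine genes were past the threshold on the side of the DR-labelled array, where 11.5% of all genes were (12.7% on the other side). The log2 ratio of TPO2 ranged from 1.05 with its brightest probe set to 5.97 without its _s_at probe set, a value that rests on a signal under background. No replicate could be left out, since each condition had 1 array. No paired analysis was possible because each condition had 1 array.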

Other observations

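Genes that regulate the exporters, and other genes under one of those regulators, were read from the same arrays. HAA1, an activator of TPO2 and TPO3 under weak acid stress, had a signal of 458.3 on the DR-labelled array and 624.9 on the AL-labelled array. PDR1 and PDR3, activators of TPO1 and other drug resistance genes, had 742.7 and 1547.3, and 278.0 and 502.6. All 3 were higher on the AL-labelled array, and only PDR1 by more than 2-fold. Of 6 other genes known as Haa1 targets, 2 were more than 2-fold higher on the DR-labelled array, as TPO2 was, and 3 on the AL-labelled array, beside 20.5% and 24.3% of all genes. HRK1, a kinase of the acid response, had 2370.5 and 1056.2, and YRO2, a membrane protein, had 1866.2 and 852.2. SPI1, a cell wall protein, had 2905.6 and 8474.5 and PHM8, a phosphatase, had 727.8 and 1956.2, both higher on the AL-labelled array. GRE1, a hydrophilin of osmotic stress, had 53.3, under background, and 5631.7, at least 43.5-fold higher on the AL-labelled array with the former raised to background. These values describe transcripts on 1 array per condition and do not show the activity of the regulators.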
